A study of Mus musculus with 6 samples.

Results

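The genes described here encode subunits of the chromatin complexes that work with or beside the transcription factor Ikaros: the nucleosome remodelling and deacetylase complex NuRD, the SWI/SNF remodellers, the Sin3 corepressor, the CtBP corepressors, the Polycomb repressive complexes PRC2 and PRC1, and the ISWI remodelling complex NURF. They were chosen by gene name, 44 in all, and each of the 44 had at least 1 probe set with a single gene symbol among the 19936 genes tested. The brightest probe set stood for a gene. A further probe set or more was present for 7 members and is given beside the gene where it adds something.

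The samples were mouse pre-B cells of strain C57Bl6, from animals aged 4 weeks, transformed by the fusion kinase BCR-ABL1 as a model of acute lymphoblastic leukaemia, and were labelled wild-type as to genotype. All 6 samples carry BCR-ABL1 and the retroviral vector pMIG, whose green fluorescent protein was used to sort transduced cells 3 days after transduction. In 3 samples the vector was empty (labelled pMIG, here empty vector 1 to 3), and in 3 it carried IKZF1, the gene of Ikaros (labelled pMIG-IKZF1, here IKZF1 1 to 3). Nothing in the labels tells whether samples of a group were separate cultures or animals, which copy or isoform of IKZF1 was inserted, or from how many clones the cells derive, so the spread between arrays may be technical. Total RNA was hybridised to Affymetrix arrays, and all levels below are log2(intensity + 1) of 1 probe set, which can be compared between arrays but not between genes.

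Ikaros is a zinc finger protein that binds DNA and brings chromatin complexes to its target genes; in lymphocytes much of it is found together with NuRD, whose ATPase CHD4 (Mi-2 beta) moves nucleosomes while HDAC1 and HDAC2 remove acetyl groups from histones. It has also been found with SWI/SNF, which opens chromatin, with Sin3 and CtBP, and with PRC2, which methylates lysine on the tail of histone H3; PRC1 reads that mark through its CBX proteins. NURF uses the ISWI ATPases and the large reader protein BPTF to slide nucleosomes. The comparison of the groups shows whether the transcripts of these complexes themselves moved when more Ikaros was supplied.

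Ikzf1, the gene supplied by the vector, read 11.85, 11.78 and 11.98 with empty vector and 13.09, 13.14 and 13.06 with IKZF1, a difference of 1.23 ± 0.07 (SE, n = 3 and 3 arrays; limma, Benjamini-Hochberg adjusted p = 0.0021). Its groups did not overlap. Array medians lay between 100.2 and 107 on the linear intensity scale. As a measure of background, 95% of 1196 olfactory and vomeronasal receptor genes had a mean log2 level below 6.18. All 9 measured B-lineage markers lay above it, among them Cd79a, Pax5 and Ebf1. Of markers of other cells, 1 of 10 myeloid, 3 of 8 T cell, 1 of 5 NK cell, 2 of 5 erythroid and 3 of 8 stromal and endothelial genes lay above it. The summed intensity of the T cell markers was 521 to 551 in the empty vector group and 564 to 676 in the IKZF1 group, and that of the stromal and endothelial markers 1630 to 2026 and 2233 to 2326. Neither pair of ranges overlapped. The sums of the myeloid markers (503 to 545 and 478 to 557) did overlap. So did those of the NK cell (220 to 229 and 220 to 223) and erythroid markers (340 to 347 and 334 to 390). The mean log2 level of each of these lists was highest on IKZF1 2, the array with the highest median intensity (107). Most of the stromal and endothelial sum came from Pecam1, whose mean log2 level was 10.35 with empty vector and 10.71 with IKZF1. Col1a1 had means of 7.31 and 7.61 (limma, adjusted p = 0.28, and 0.0499 with the replicate number as a block) and Col3a1 of 6.86 and 7.17 (0.21 and 0.053). Among the T cell markers Cd3e had means of 6.95 and 7.34 (0.21 and 0.082) and Cd8a of 6.09 and 6.31 (0.30 and 0.13). All IKZF1 arrays were above for Pecam1, Col3a1, Cd3e and Cd8a, as for 15.2% of all genes, and the groups overlapped for Col1a1. Dcn, Kdr, Cdh5 and Cxcl12 stayed below the background limit on average, as did Cd3d, Cd3g, Cd4, Cd28 and Trat1 among the T cell markers. The part of other cells in the differences below was not tested, and in such bulk RNA fewer cells of a type and less RNA per cell cannot be told apart.

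Of the 44 members 1 rose with IKZF1, Bptf, and 43 did not pass an adjusted p under 0.05. Among all genes 2.25% passed (448 of 19936; 223 or 1.12% higher and 225 or 1.13% lower, but 110 higher and 279 lower after median centring), and 1 of 44 is near that share. An unadjusted p under 0.05 was reached by 10 members, 6 higher and 4 lower, and by 18.4% of all genes (9.58% higher, 8.84% lower). A difference of at least 0.5 in size was seen for 2 members, Bptf and Sap30, and for 4.42% of all genes. The median log2 difference of the members was 0.03, as it was over all genes (0.03), and the median size of the difference without its sign was 0.09 against 0.11. With the replicate number of the titles as a block, 6 members passed, 3 higher and 3 lower, where 7.21% of all genes did (3.36% higher, 3.85% lower): Bptf, Smarca4 and Cbx7 were higher and Mta1, Cbx8 and Sap30 lower. The groups did not overlap for 15 members, 8 with all IKZF1 arrays above and 7 with all below, beside 26.5% of all genes (15.2% above, 11.3% below). For 35 of the 44 the 95% interval of the log2 difference lay wholly between -0.5 and 0.5.

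**Figure D1:**
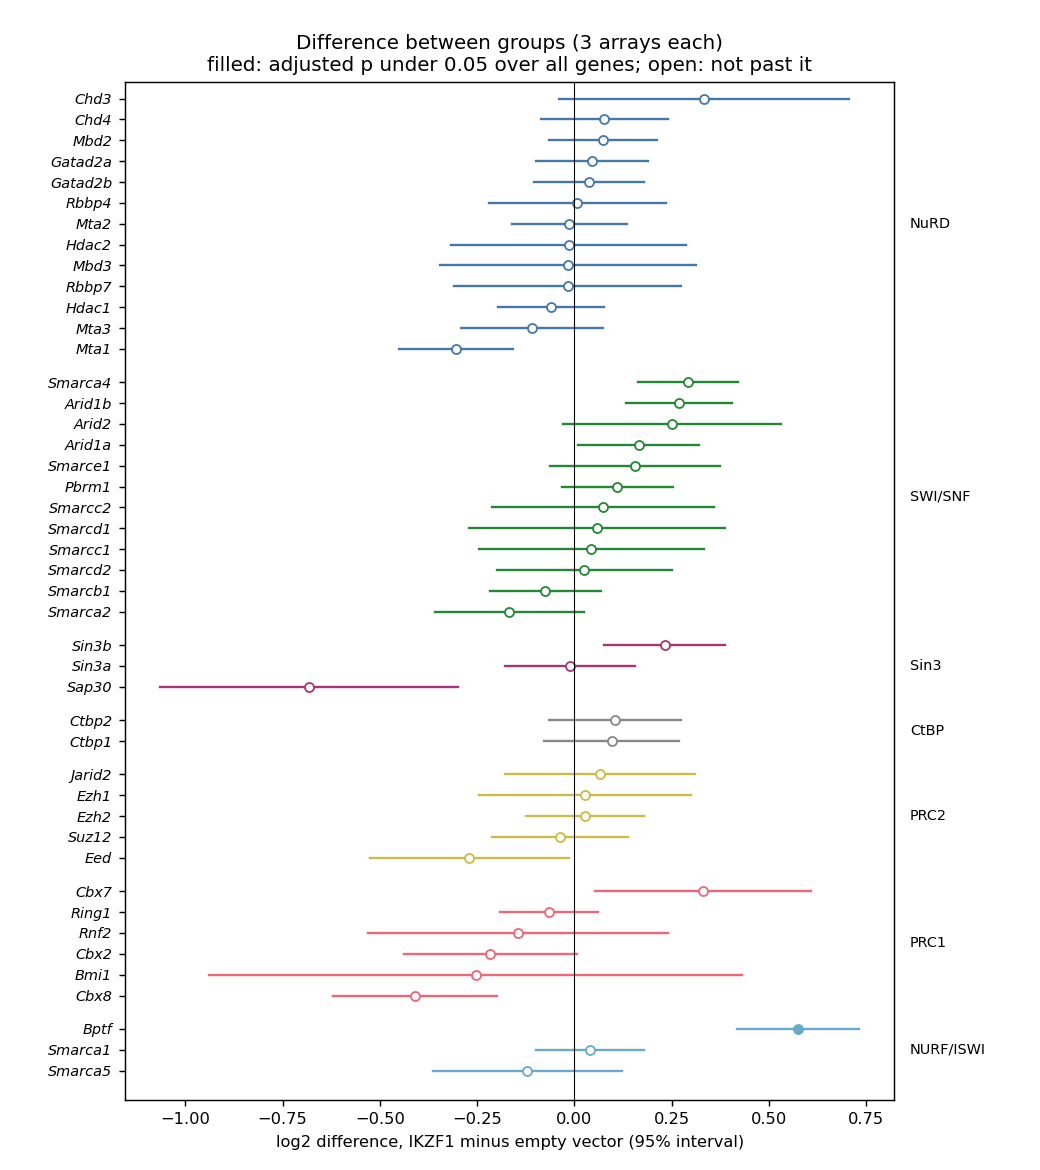
Log2 difference (IKZF1 minus empty vector, 3 arrays each) of the 44 members with its 95% interval from limma, grouped by complex. Bptf, at 0.58, is the one filled point (adjusted p under 0.05 over all genes), and 35 of the intervals stay between -0.5 and 0.5.

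NURF and its ISWI motors gave the one member that rose. BPTF is the large NURF subunit that binds methylated and acetylated histone tails. Bptf read 10.76, 10.74 and 10.66 with empty vector and 11.24, 11.38 and 11.27 with IKZF1. Every IKZF1 array stood above every empty vector array, by more than the range within either group. The difference was 0.58 ± 0.07 (SE, n = 3 and 3 arrays), a 1.49-fold rise with a 95% interval of 0.42 to 0.73 on the log2 scale (limma, adjusted p = 0.015; 0.014 with the replicate block). The other Bptf probe set read 10.36, 10.36 and 10.32 with empty vector and 11.07, 10.93 and 10.93 with IKZF1. It gave 0.63 ± 0.06 (SE, n = 3 and 3 arrays; limma, adjusted p = 0.011 among all probe sets), so both probe sets of the gene moved alike. With 1 array left out the difference of the brighter probe set stayed between 0.53 and 0.60, but its call was lost without empty vector 1 (limma, adjusted p = 0.096) and without IKZF1 1, 2 or 3 (adjusted p = 0.078, 0.053 and 0.070). That of the other probe set stayed between 0.58 and 0.65. Its call was lost without empty vector 1, IKZF1 1 or IKZF1 3 (limma, adjusted p = 0.092, 0.064 and 0.053).

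The genes of the ISWI ATPases that drive NURF did not pass the test. Smarca5, which encodes SNF2H, read 11.60, 11.40 and 11.73 with empty vector and 11.39, 11.41 and 11.57 with IKZF1, with overlapping groups. Its log2 difference was -0.12 with a 95% interval of -0.36 to 0.12 (limma, adjusted p = 0.55), and 3 further probe sets that carry its symbol beside others were not used. Smarca1, which encodes SNF2L, read 4.48 to 4.57 with empty vector and 4.53 to 4.61 with IKZF1, all within the background range, so that no level of it can be given. Other proteins join the ISWI motors in complexes of their own: the bromodomain proteins BAZ2A and BAZ2B pair with SNF2H or SNF2L, and CECR2 does as well.

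Of 73 other subunits of these complexes measured, 3 (4.11%) passed, where 2.25% of all genes did: Baz2b rose, and Phf10 and Pcgf1, described with their complexes, fell. Among the 9 ISWI partners Baz2b went from 9.78, 9.69 and 9.89 to 10.27, 10.15 and 10.22, a difference of 0.43 ± 0.07 (SE, n = 3 and 3 arrays; limma, adjusted p = 0.042, and 0.15 after median centring and 0.054 with an intensity trend in the prior). Baz2a read 10.68, 10.82 and 10.35 with empty vector and 11.15, 11.18 and 11.02 with IKZF1. Its difference of 0.50 had an adjusted p of 0.11 in limma and 0.028 with the replicate block. Cecr2 had 0.25 (adjusted p = 0.0998), and its IKZF1 arrays were all above as well. The other 6, Baz1a, Baz1b, Rsf1, Chrac1, Pole3 and Hmgxb4, had log2 differences below 0, lowest for Chrac1 at -0.24, with adjusted p of 0.25 or more. Baz2b, too, lost its call without each of the arrays other than empty vector 3 (adjusted p from 0.095 to 0.20).

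**Figure D2:**
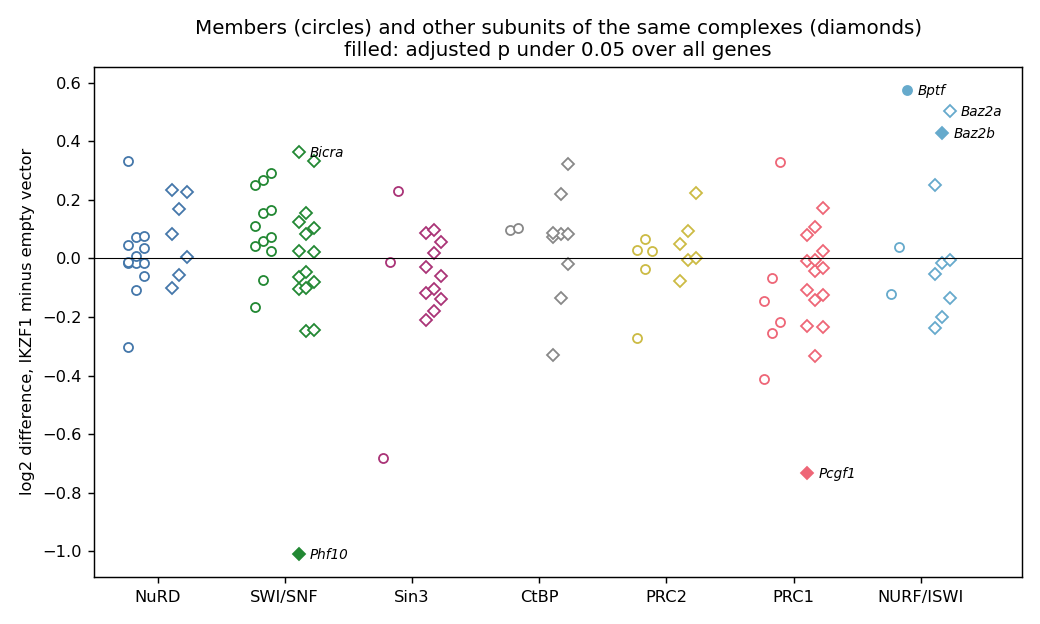
Log2 difference (IKZF1 minus empty vector) of the 44 members (circles) and of 73 other subunits of the same complexes (diamonds), by complex. Filled points passed an adjusted p under 0.05 over all genes: Bptf and Baz2b above 0, Phf10 and Pcgf1 below 0.

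In PRC1 the groups did not overlap for 4 of 6 members, 1 above and 3 below, beside 26.5% of all genes. PRC1 is built on the ubiquitin ligases RING1 and RNF2, a PCGF protein such as BMI1, and a CBX protein that reads methylated histone H3. None of its 6 members passed in limma (2 had an unadjusted p under 0.05). The log2 difference was below 0 for 5, where 59.2% of all genes lay above 0, and the median was -0.18. Cbx8 read 8.94, 8.76 and 8.97 with empty vector and 8.54, 8.35 and 8.55 with IKZF1, which were all lower. The difference was -0.41 ± 0.09 (SE, n = 3 and 3 arrays; limma, adjusted p = 0.075, and 0.022 with the replicate block). Cbx7 read 9.38, 9.50 and 9.24 with empty vector and 9.71, 9.89 and 9.51 with IKZF1. All IKZF1 arrays stood above, IKZF1 3 by little, and the difference of 0.33 ± 0.12 (SE, n = 3 and 3 arrays) had an adjusted p of 0.21 in limma and 0.039 with the block. Cbx2 read 10.83, 10.63 and 10.98 against 10.61, 10.58 and 10.60, a difference of -0.22 (adjusted p = 0.28; 0.17 with the block).

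CBX proteins take the same seat in PRC1, and the balance of the pair was read within each array. The log2 value of Cbx7 minus that of Cbx8, set to a mean of 0 over the empty vector arrays, was -0.04, 0.25 and -0.21 there and 0.69, 1.06 and 0.48 with IKZF1. The mean change was 0.74, where the SD within groups was 0.24 and 0.29 (n = 3 arrays each), and the groups did not overlap (exact permutation p = 0.1, 2-sided, the smallest that 3 against 3 arrays allow). Cbx7 was above and Cbx8 below on every IKZF1 array, so the groups of the pair had to be apart. The balance restates the values of both genes and is no further test.

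The windows before the start sites of Bptf, of Cbx7 and of Cbx8 are shown because Bptf is the member that rose and the CBX genes were called in opposite directions with the block. Each is the 250 bases upstream of a start site in RefSeq's GRCm38.p6 annotation, printed 5′ to 3′ on the strand of the gene, and capitals mark GGGAA or its reverse complement TTCCC, the core that Ikaros zinc fingers are known to recognise. Bptf is at chr11:107132148-107132397, Cbx7 at chr15:79932647-79932896 and Cbx8 at chr11:119040914-119041163, all on the minus strand. The windows of Bptf and Cbx8 end at the outer start of the gene, while the window listed for Cbx7 lies inside the span of the gene, before an internal start site.
Bptf: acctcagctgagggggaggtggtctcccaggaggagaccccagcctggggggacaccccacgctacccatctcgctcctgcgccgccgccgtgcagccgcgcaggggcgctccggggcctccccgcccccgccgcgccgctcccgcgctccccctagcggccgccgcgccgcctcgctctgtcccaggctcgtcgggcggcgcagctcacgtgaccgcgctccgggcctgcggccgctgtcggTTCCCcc
Cbx7: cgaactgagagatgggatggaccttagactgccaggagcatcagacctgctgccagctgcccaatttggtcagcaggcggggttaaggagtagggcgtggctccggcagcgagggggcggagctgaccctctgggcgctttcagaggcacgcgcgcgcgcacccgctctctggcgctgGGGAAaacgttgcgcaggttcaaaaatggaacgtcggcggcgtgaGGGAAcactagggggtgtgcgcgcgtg
Cbx8: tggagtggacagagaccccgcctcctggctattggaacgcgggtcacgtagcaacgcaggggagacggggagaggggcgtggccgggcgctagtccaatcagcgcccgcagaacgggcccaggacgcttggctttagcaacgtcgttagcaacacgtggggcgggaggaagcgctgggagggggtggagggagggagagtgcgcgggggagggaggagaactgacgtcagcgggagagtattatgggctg
The Bptf window held 1 core, as TTCCC next to the start, that before the internal start of Cbx7 held 2, both as GGGAA, and that of Cbx8 held 0. The Bptf window was 79.2% G or C, against 64.8% and 66.4%. For 7 members the table lists several windows, and the first listed was used. Of the 37 members with a window, 20 (54.1%) held at least 1 core and 7 (18.9%) at least 2, where 56.2% and 21.2% of all 32851 windows did. A match of 5 letters is a description of the sequence and not a binding site.

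BMI1 and the RING ligases showed no called difference. Bmi1, which maintains stem cells in many tissues, was the most variable member: 10.13, 9.60 and 10.69 with empty vector and 9.85, 9.60 and 10.20 with IKZF1. The groups overlapped, and the interval of its difference (-0.25) ran from -0.94 to 0.43, too wide to exclude a sizeable change. Rnf2 read 10.86, 10.64 and 11.22 against 10.77, 10.59 and 10.93 (difference -0.14, interval -0.53 to 0.24). Ring1 read 8.70 to 8.71 against 8.61 to 8.66, with all IKZF1 arrays lower but a difference of -0.07 (adjusted p = 0.53).

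Among 15 other PRC1 subunits measured, 1 fell and 14 did not pass. An unadjusted p under 0.05 was reached by 3, all lower (Pcgf1, Pcgf2 and Pcgf6), beside 18.4% of all genes (8.84% lower). The one that fell was Pcgf1, which encodes a PCGF protein of the PRC1 form that holds KDM2B and BCOR. It went from 9.28, 9.37 and 9.01 to 8.47, 8.41 and 8.58. All IKZF1 arrays were lower, and the difference was -0.73 ± 0.11 (SE, n = 3 and 3 arrays; limma, adjusted p = 0.028, and 0.025 with the block). Without any 1 array other than empty vector 3 its adjusted p was 0.067 to 0.16. Pcgf2, which encodes MEL18, had -0.33 (adjusted p = 0.14) and Pcgf6 -0.24 (adjusted p = 0.23). Each had all IKZF1 arrays lower, as did 11.3% of all genes. The partners of PCGF1, Kdm2b (-0.23) and Bcor (-0.01), with adjusted p of 0.38 and 0.98, had overlapping groups.

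PRC2 is the methyltransferase itself, with EZH2 or EZH1 as its catalytic subunit and EED and SUZ12 as its frame. None of its 5 members passed in limma or with the block, and their median difference was 0.03. An unadjusted p under 0.05 was reached by 1, beside 18.4% of all genes. Ezh2 read 13.35, 13.27 and 13.19 with empty vector and 13.33, 13.29 and 13.28 with IKZF1. The groups overlapped throughout, and the interval of the difference (0.03) was -0.12 to 0.18. Ezh1 (0.03), Suz12 (-0.04) and Jarid2 (0.07), which guides PRC2 to chromatin, overlapped as well, with adjusted p from 0.75 to 0.91. Eed, whose product binds the methyl mark, had the smallest p of the complex. It read 10.12, 10.06 and 10.19 against 9.97, 9.63 and 9.97, all lower, with a difference of -0.27 and an interval of -0.53 to -0.01 (limma, adjusted p = 0.25; 0.098 with the block). The dimmer Eed probe set lay in the background range. Of the 6 other PRC2 genes none passed, in limma or with the block, and none had an unadjusted p under 0.05. Phf1 had the smallest p among them (0.22, adjusted p = 0.30).

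None of the 12 SWI/SNF members passed in limma. An unadjusted p under 0.05 was reached by 3, all higher, beside 18.4% of all genes (9.58% higher). Of the 12, 10 had a log2 difference above 0, where 59.2% of all genes did, and the median was 0.09. That count depends on the setting: Smarcc1, Smarcc2, Smarcd1, Smarcd2 and Pbrm1 fell below 0 under some alternative settings. Smarca4, which encodes the ATPase BRG1, read 12.76, 12.70 and 12.77 with empty vector and 13.03, 13.04 and 13.03 with IKZF1. The IKZF1 arrays were nearly level with each other and above all empty vector arrays. The difference was 0.29 ± 0.05 (SE, n = 3 and 3 arrays), 1.22-fold with an interval of 0.16 to 0.42 (limma, adjusted p = 0.052). It was past the threshold with the replicate block (adjusted p = 0.048) and under 5 of the 16 other alternative settings, among them quantile normalization (0.024) and an intensity trend in the prior (0.016). After median centring the difference was 0.19 (adjusted p = 0.21).

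Smarca2, which encodes BRM, the other ATPase that can drive SWI/SNF, read 9.58, 9.63 and 9.45 against 9.44, 9.27 and 9.45, with all IKZF1 arrays lower, IKZF1 3 and empty vector 3 nearly level. Its difference was -0.17 (adjusted p = 0.33). Within arrays the log2 value of Smarca4 minus that of Smarca2, relative to its empty vector mean, was -0.01, -0.12 and 0.13 with empty vector and 0.41, 0.57 and 0.39 with IKZF1. The change of 0.46 was larger than the SD within groups (0.12 and 0.10, n = 3 arrays each; exact permutation p = 0.1, 2-sided, the smallest possible). With Smarca4 above and Smarca2 below on every IKZF1 array, the groups of the pair had to be apart, so this is no further test.

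The ARID and PBRM1 subunits tell the forms of SWI/SNF apart: ARID1A or ARID1B mark the BAF form, and ARID2 with PBRM1 the PBAF form. Arid1b read 11.03, 11.09 and 11.10 with empty vector and 11.29, 11.38 and 11.35 with IKZF1. Its difference was 0.27 ± 0.06 (SE, n = 3 and 3 arrays; limma, adjusted p = 0.073, and 0.055 with the block). Arid1a had 0.17 (11.45, 11.44 and 11.50 against 11.57, 11.59 and 11.72; adjusted p = 0.25). For both ARID1 genes all IKZF1 arrays were above, as for 15.2% of all genes. Arid2 had 0.25 with overlapping groups and an interval of -0.03 to 0.53. Pbrm1 had 0.11 by its brightest probe set, with all IKZF1 arrays above, but -0.05 and -0.11 by its other probe sets, so its direction depends on the probe set. The core scaffold genes Smarcb1 (-0.07), Smarcc1 (0.04), Smarcc2 (0.07), Smarcd1 (0.06), Smarcd2 (0.03) and Smarce1 (0.16) overlapped between groups, with adjusted p from 0.41 to 0.90. Smarce1 gave 0.13 and 0.17 by its other probe sets. Which of the 3 reads the gene itself is not settled by the table.

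**Figure D3:**
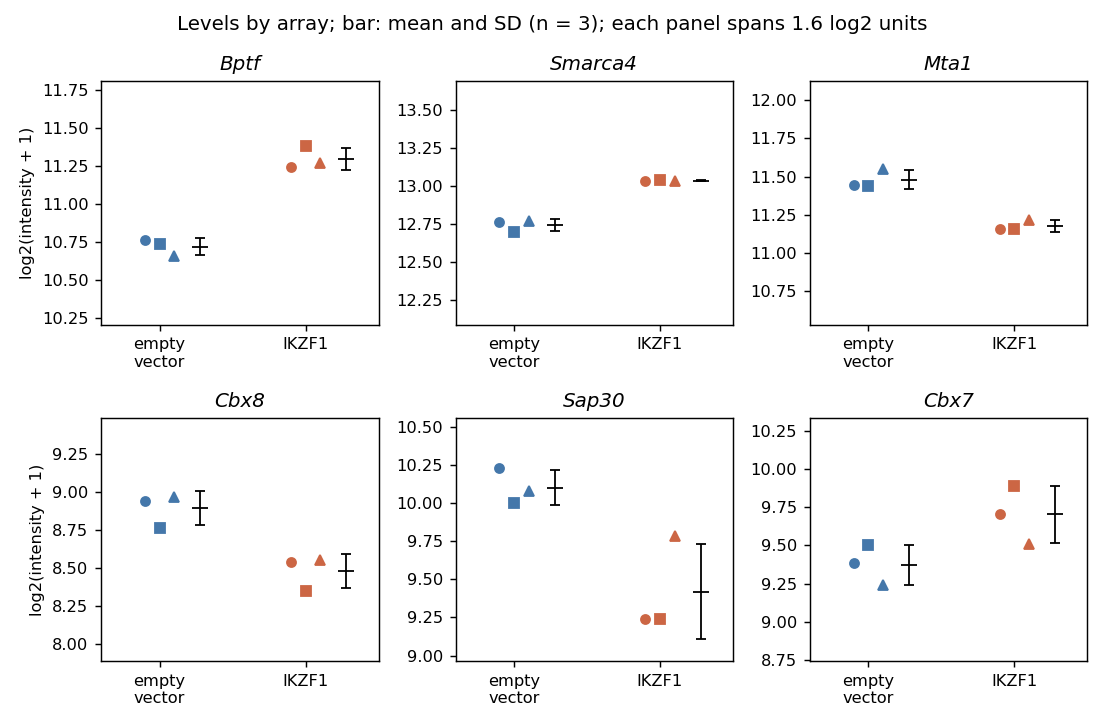
Log2(intensity + 1) of Bptf, Smarca4, Mta1, Cbx8, Sap30 and Cbx7 on each array (circle, square and triangle for replicate 1, 2 and 3), with mean and SD of each group (n = 3). The 6 were picked because they passed the threshold with or without the replicate block in these data. That the groups do not overlap in any panel is therefore no further result, and 26.5% of all genes had no overlap. The single IKZF1 array at 9.78 makes the wide bar of Sap30.

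Among 16 other SWI/SNF subunits 1 fell and 15 did not pass. Phf10, a PHD finger subunit of PBAF (BAF45A) that is replaced as neural progenitors mature, went from 11.77, 11.81 and 11.13 to 10.60, 10.52 and 10.57. Empty vector 3 stood apart from the other empty vector arrays, and all IKZF1 arrays lay lower still. The difference was -1.01 ± 0.18 (SE, n = 3 and 3 arrays; limma, adjusted p = 0.0498, and 0.023 with the block). The call sat at the threshold: it was lost with quantile normalization (adjusted p = 0.052), with cyclic loess (0.063) and without each array other than empty vector 3 (0.10 to 0.21). Bicra, a subunit of the small GBAF form, had 0.36 (adjusted p = 0.067, and 0.029 with the block), with all IKZF1 arrays above.

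NuRD, the complex most closely tied to Ikaros, showed small differences, with a median size of 0.05. None of its 13 members passed in limma (1 had an unadjusted p under 0.05), 6 had a difference above 0 and 7 below it, and the median was -0.01. Chd4 read 11.67, 11.62 and 11.76 with empty vector and 11.79, 11.68 and 11.81 with IKZF1. The groups overlapped, and the difference of 0.08 had an interval of -0.09 to 0.24. Its paralogue Chd3 had 0.33 (7.91, 7.77 and 8.36 against 8.24, 8.40 and 8.40; adjusted p = 0.32). Chd3 passed under 1 of 17 alternative settings, without empty vector 3 (0.51, adjusted p = 0.029), the one empty vector array level with the IKZF1 group.

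MTA proteins form the scaffold that holds the deacetylases in NuRD, and a complex takes its copies from MTA1, MTA2 or MTA3. Mta1 read 11.45, 11.44 and 11.55 with empty vector and 11.15, 11.15 and 11.22 with IKZF1. All IKZF1 arrays were lower, and the difference was -0.30 ± 0.06 (SE, n = 3 and 3 arrays; limma, adjusted p = 0.062, and 0.042 with the block). Mta2 (-0.01) and Mta3 (-0.11) had overlapping groups, with intervals of -0.16 to 0.13 and -0.29 to 0.07. The log2 value of Mta2 minus that of Mta1, relative to its empty vector mean, was 0.07, 0.01 and -0.08 with empty vector and 0.37, 0.24 and 0.27 with IKZF1, again without overlap.

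The deacetylase and histone chaperone subunits serve NuRD and Sin3 alike, and the chaperones PRC2 too. Hdac1 read 12.57, 12.57 and 12.50 against 12.44, 12.52 and 12.49, and its difference was -0.06 (interval -0.20 to 0.08). The other Hdac1 probe set gave -0.08. Hdac2 (-0.01), Rbbp4 (0.01) and Rbbp7 (-0.02) had adjusted p of 0.95 to 0.98. Over these 4 genes the lowest and highest interval bounds were -0.32 and 0.29. Mbd2 (0.07) and Mbd3 (-0.02), of the methyl-CpG binding domain family, and the linkers Gatad2a (0.05) and Gatad2b (0.04) had adjusted p from 0.52 to 0.96. Of 7 other NuRD subunits and partners, Zmynd8, a reader of acetylated histones, had the smallest p (0.17, adjusted p = 0.18), and none passed in limma, where 1 had an unadjusted p under 0.05.

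Sin3 assembles deacetylases on the scaffolds SIN3A and SIN3B, with SAP30 as a small stabilising subunit. Neither Sap30 nor the scaffold genes passed in limma. An unadjusted p under 0.05 was reached by 2 of the 3, Sap30 lower and Sin3b higher, beside 18.4% of all genes. Sap30 had the largest negative difference of the 44 members. It read 10.23, 10.00 and 10.08 with empty vector and 9.24, 9.24 and 9.78 with IKZF1. All IKZF1 arrays were lower, and IKZF1 3 was the one nearest to the empty vector arrays. The difference of -0.68 ± 0.16 (SE, n = 3 and 3 arrays) had an adjusted p of 0.091 in limma, 0.045 with the block and 0.040 without IKZF1 3. Sin3b had 0.23 (9.37, 9.39 and 9.23 against 9.58, 9.58 and 9.53; adjusted p = 0.14), with all IKZF1 arrays above, and Sin3a -0.01 (adjusted p = 0.94). Groups without overlap, as for Sap30 and Sin3b, were seen for 26.5% of all genes. Of 11 other Sin3 subunits none passed in limma or with the block, and the unadjusted p was under 0.05 for 1. The smallest p was that of Ing2, a reader of methylated histone H3 (-0.21, adjusted p = 0.14), and the SAP30 homologue gene Sap30l had -0.14 (adjusted p = 0.57).

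The CtBP corepressors, which bind short peptide motifs of DNA-binding repressors, had overlapping groups, and neither had an unadjusted p under 0.05. Ctbp1 read 12.67, 12.62 and 12.82 against 12.78, 12.77 and 12.85 (difference 0.10, interval -0.08 to 0.27). Ctbp2 read 6.96, 7.08 and 6.97 against 7.07, 7.21 and 7.05 (0.10, interval -0.07 to 0.27). Of 9 partners measured none passed in limma or with the block, 2 had an unadjusted p under 0.05, and Rcor1, the CoREST scaffold gene, had the smallest p (0.22, adjusted p = 0.14).

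**Figure D4:**
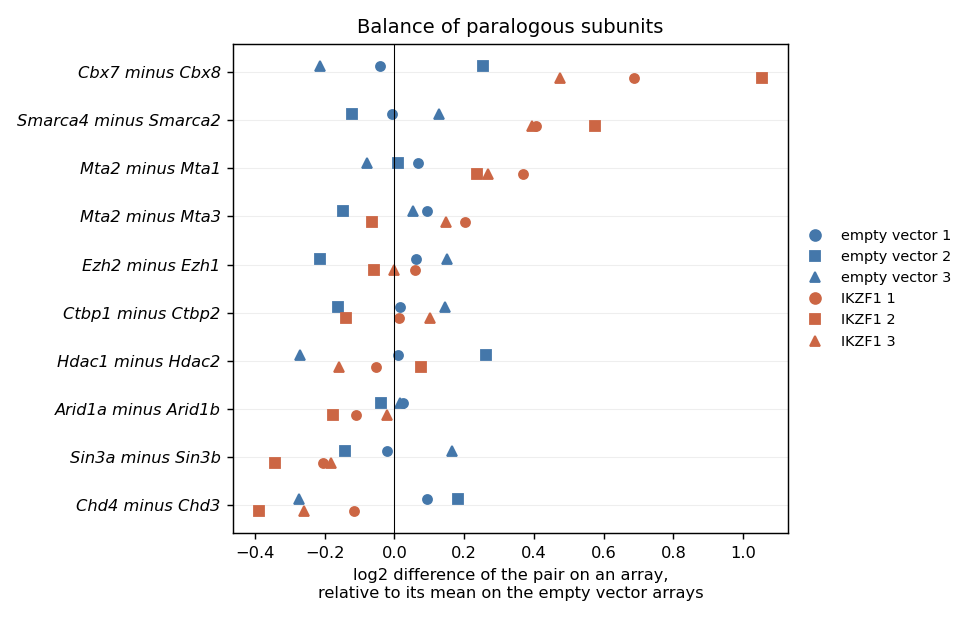
For 10 pairs of paralogous subunits, the log2 value of the first minus that of the second on each array, relative to its mean on the 3 empty vector arrays. The groups are apart for Cbx7 minus Cbx8, Smarca4 minus Smarca2, Mta2 minus Mta1 and Sin3a minus Sin3b, and overlap for the other 6 pairs.

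The pairs were set with earlier results known and restate the differences of their genes; Cbx2 is in none of them. Across the 10 paralogue pairs read this way, 4 had no overlap between groups: Cbx7 with Cbx8 (0.74), Smarca4 with Smarca2 (0.46), Mta2 with Mta1 (0.29) and Sin3a with Sin3b (-0.24). Each had an exact permutation p of 0.1 (2-sided; 0.25 after Benjamini-Hochberg adjustment over the 10 pairs). No share over other pairs of genes was computed. For single genes the groups did not overlap in 26.5% of all genes. Ezh2 with Ezh1 differed by -0.0004, where the SD within groups was 0.19 and 0.06, and Ctbp1 with Ctbp2 by -0.01.

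The members also varied together between arrays of the same group. In the empty vector group 24 of the 44 (54.5%) were highest on array 3 and lowest on array 2, where 27.1% of all genes were. In the IKZF1 group 16 (36.4%) had that order, where 18.7% of all genes did, and 13 had it in both groups. The shares over all genes include genes in the background range (12651 of 19936 lay above its limit), unlike nearly all members. No share among genes of like level was computed. Hdac2, Rbbp7, Mbd3, Smarcd1, Bmi1 and Rnf2 are examples, with empty vector 2 and 3 as far apart as 9.60 and 10.69 for Bmi1. The order was shared by 11 of 11 proliferation markers in the empty vector group and 8 of 11 in the IKZF1 group, among them Top2a and Rrm2, and by 7 and 6 of 9 B-lineage markers, with Rag1 at 7.93, 6.52 and 9.70 on empty vector 1, 2 and 3. The part of proliferation or of cell state in the order of the arrays was not tested. Bptf did not follow it: empty vector 3 was its lowest array.

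**Figure D5:**
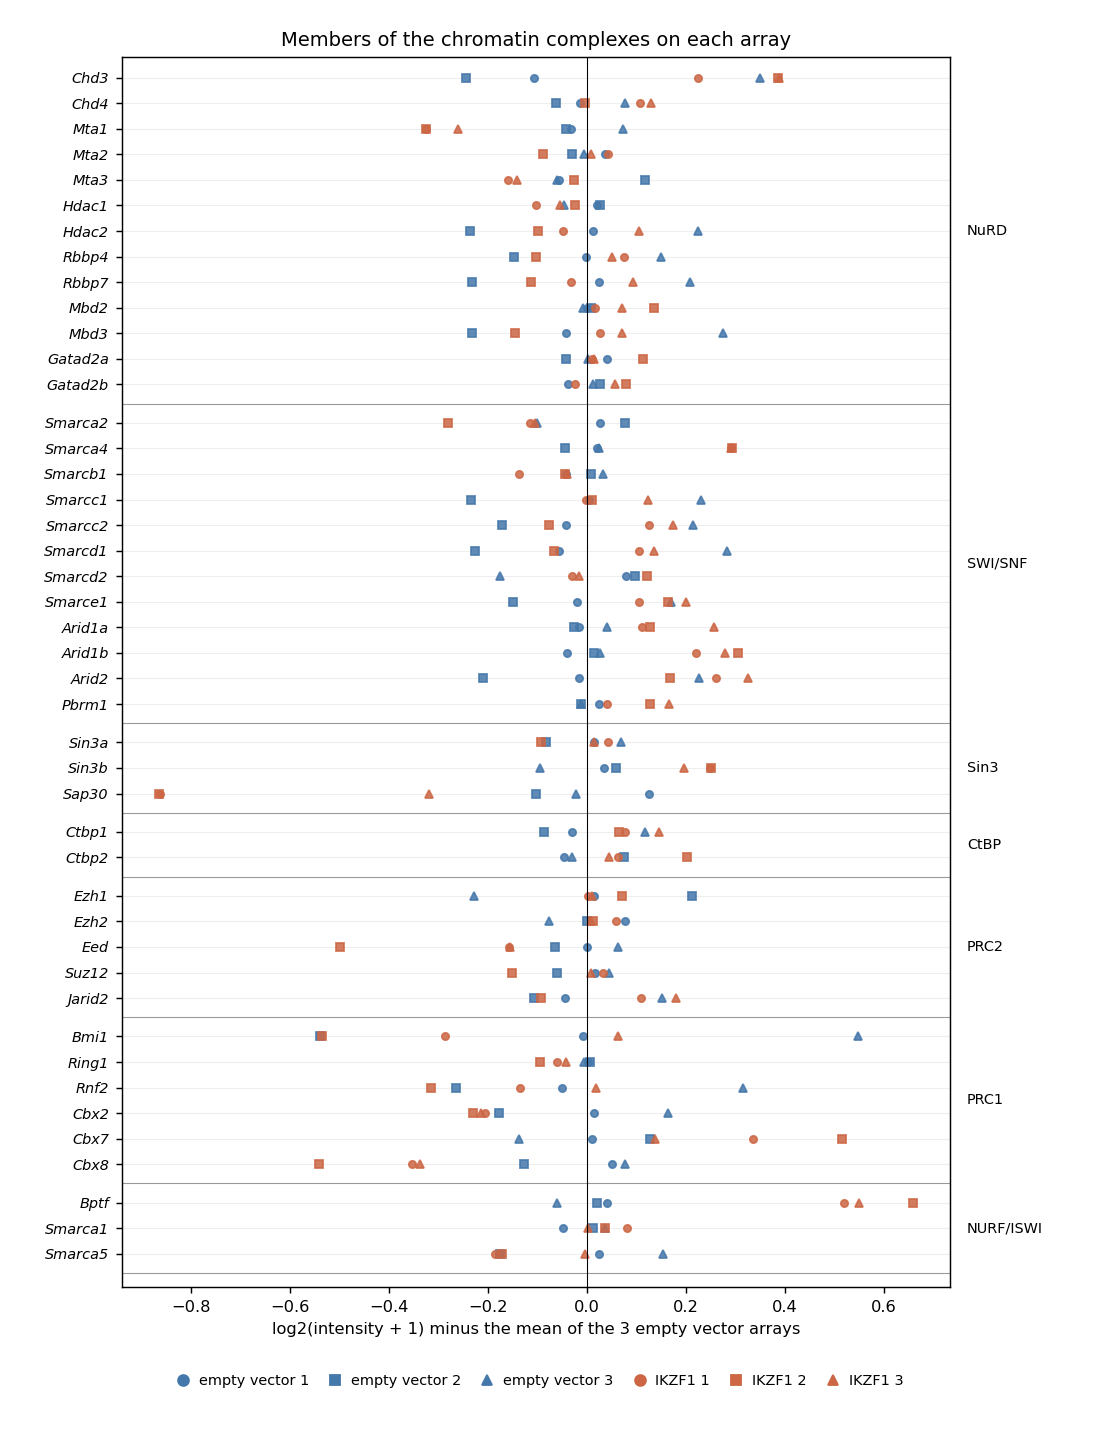
Log2(intensity + 1) of each of the 44 members on the 6 arrays, minus its mean on the empty vector arrays, by complex; blue marks empty vector and orange IKZF1, with circle, square and triangle for replicate 1, 2 and 3. Blue triangles often lie far right and blue squares far left (24 of 44 members), while Bptf is the member whose orange marks all lie beyond 0.5.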

How the data were processed

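Probe set intensities of 6 arrays were normalized by RMA, per the submitters' processing notes; the sources used here name no software version, annotation or genome build. Intensity values as deposited are linear (11.1 to 23523), read as such from their range. RMA sets the distributions of arrays alike, so a shift common to most genes would be reduced, and dim signals hold background, so their differences may be understated.

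From these log2(intensity + 1) was computed (pseudocount 1). Of 35421 probe sets, 21789 pair with 1 symbol, 1621 with more than 1, and 12011 have no symbol in the table used. Symbols were matched by gene number (21698) or accession (3), and 88 were kept as given. The matching changed 2 symbols. The brightest probe set stood for each of 19936 genes, with no filter on level. The comparison of groups used limma 3.58.1 under R 4.3.3 (lmFit, eBayes, 2-sided, group as the only term), with Benjamini-Hochberg adjustment over all genes and a threshold of 0.05. Standard errors, 95% intervals and adjusted p come from this fit, which was tested on simulated data. Precision is limited by the number of arrays.

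The members, the lists of other subunits and the marker lists were chosen by name with earlier results of these data known. All members may be named; those past the threshold with or without the block, and the smallest p of each complex, are given array by array, and of the other subunits those past the threshold or, where none was, the smallest p. Beyond that rule, Bicra, Baz2a, Cecr2 and the other ISWI partners, Pcgf2, Pcgf6, Kdm2b, Bcor, Sap30l and the array values of further members were added after their values were seen. Alternatives were no pseudocount, genes above background, the mean of probe sets, other normalizations, other priors, array weights, blocks and leaving out each array.

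Replicate numbers are shared by the groups. Arrays of the same number deviated together from the means of their groups, over genes, with r = 0.24, 0.60 and 0.66, all above 0.1, so the block fit is given where it changes a call; empty vector 1 with IKZF1 2 also reached 0.11, so the numbers are not a firm pairing. Sequences are from RefSeq (GRCm38.p6), matched by symbol for 37 of the 44 members.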

Additional observations from a re-analysis of the deposited data

How the results depend on the processing

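No result turned its direction past the threshold. Of 747 values of the members under 17 alternative settings, 723 stayed on their side of the threshold, 4 lost the call (all Bptf with 1 array left out) and 20 gained one. The sign of the difference held under every setting run for 21 members, and changed in at least 1 for 23, where the turned value was at most 0.12 in size. All genes past the threshold numbered 1481 with array weights (whose fit stopped before it converged), 1438 with the replicate block, 1664 with a random replicate block, and 24 to 947 with 1 array left out (28, 163 and 947 when empty vector 1, 2 or 3 was left out, and 24, 83 and 85 when IKZF1 1, 2 or 3 was). Members past it numbered 2 with quantile normalization, cyclic loess and an intensity trend, 5 with array weights, 6 with the replicate block, 7 with the random replicate block and 0 to 2 with 1 array left out. They numbered 0 without empty vector 1, IKZF1 1 or IKZF1 2. Other subunits past it numbered 10 with array weights, 5 with the replicate block, 9 with the random replicate block and 0 to 6 with 1 array left out, with 0 without each array other than empty vector 3. Fewer arrays were fitted in the latter settings; the cause of the other changes was not tested. Signal near background limits Smarca1.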

Other observations

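Other chromatin regulators, listed by name after the values of the members had been seen, were looked at in the same fit, and 72 of 75 were measured. Of these 2 rose and 70 did not pass, 2.78% beside 2.25% of all genes. Both risers are histone demethylase genes. Kdm7a, whose product removes methyl groups from repressive marks of histone H3, read 8.54, 7.90 and 9.31 with empty vector and 10.50, 10.29 and 10.67 with IKZF1, a difference of 1.90 ± 0.34 (SE, n = 3 and 3 arrays; limma, adjusted p = 0.046, and 0.011 with the replicate block). Kdm5b, which acts on a mark of active promoters, read 5.51, 5.82 and 5.41 against 6.73, 6.56 and 6.89 (1.14 ± 0.13, SE; adjusted p = 0.015). Its empty vector level lay in the background range. Kdm4b read 9.45, 9.45 and 9.42 against 9.79, 9.71 and 9.72, a difference of 0.30 (adjusted p = 0.0502, and 0.044 with the block).

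With the block Hdac8 (0.32), Kmt2b (0.30), Kmt2c (0.40) and Chd9 (0.33) were also higher and Suv39h2 (-0.32) lower (limma, adjusted p from 0.028 to 0.045), so that 7 of the 72 were higher and 1 lower, where 7.21% of all genes passed with the block (3.36% higher, 3.85% lower). None of the 7 DNA methylation genes and none of the 9 histone acetyltransferase genes passed in limma or with the block. An unadjusted p under 0.05 was reached by 1 and 3 of them, beside 18.4% of all genes.

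By Pearson's r over the 6 arrays, the 5 genes most like Bptf were Olfr1419 (0.997), Pik3cd (0.996), Mon2 (0.996), Olfr491 (0.995) and Vps18 (0.995). All 6 arrays fall in 2 groups, and Olfr1419 and Olfr491 are olfactory receptor genes.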
